A study of Mus musculus with 4 samples.

Results

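Retinal ganglion cells (RGCs), the output neurons of the eye, were followed here through 10 transcripts that serve the field as neurite and identity markers. They were selected by gene symbol in the deposited count table and comprise the intermediate filament genes *Nefl*, *Nefm* and *Ina*, the growth cone genes *Gap43* and *Stmn2*, the synuclein gene *Sncg*, the surface protein genes *Thy1* and *Islr2*, the RNA-binding protein gene *Rbpms* and the beta tubulin gene *Tubb3*. All 10 were present among the 52550 genes of the table, and 10 of 10 passed the filter on low counts that left 13632 genes for testing. The libraries came from retinas of wild-type C57BL/6 mice at postnatal day 0 (P0), dissociated with papain. Anti-YTHDF2 RNA immunoprecipitation (RIP) was carried out on the cells, and 2 libraries of input RNA and 2 libraries of RNA eluted from the antibody (RIP) were sequenced. Every animal was wild type and untreated, so that the comparison is between pulldown and starting RNA of the same tissue. An IgG control pulldown described in the study's methods was not analysed here, and a value above or below the input therefore has no antibody background to be set against.

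The members belong to a cell type with a long axon. Neurofilament light (*Nefl*) and medium (*Nefm*) chains and alpha-internexin (*Ina*) co-assemble into the filaments that fill axons. GAP43 and stathmin-2 (*Stmn2*) are enriched in growth cones, the former at the membrane and the latter as a microtubule-destabilizing phosphoprotein. Gamma-synuclein, THY1 and RBPMS are widely used to label RGCs in tissue sections, class III beta tubulin marks young neurons in general, and ISLR2 (also called LINX) is a leucine-rich repeat and immunoglobulin domain protein of growing axons. YTHDF2 reads N6-methyladenosine (m6A) in mRNA and recruits the machinery that shortens the life of the bound transcript. The comparison of RIP with input asks which transcripts were over- or under-represented among the RNA recovered with YTHDF2.

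m6A is laid down mostly on the A of GGAC and related contexts. The letters GGACT, on the sense strand, were therefore searched in the transcript with the longest coding sequence of each gene (GENCODE M21, GRCm38). They occurred at least once in 9 of the 10 members and in 92.1% of the 11932 tested protein-coding genes. Among transcripts of over 1000 to 2000 nt this share was 83.4%, and the *Gap43* transcript of 1420 nt was the member without a match. *Ina* held 1 match in 3240 nt, *Islr2* 5 in 4123 nt, *Nefl* 3 in 3380 nt, *Nefm* 3 in 3334 nt, *Stmn2* 1 in 2073 nt and *Sncg* 1 in 852 nt. Per kilobase the members ran from 0 in *Gap43* through 0.309 in *Ina* to 1.73 in *Thy1*, around a median of 1.05 for the tested protein-coding genes. The match nearest to the stop codon is shown for the 5 members with a match that lay at the ends of the RIP comparison, namely the most depleted (*Sncg*, *Nefm*, *Stmn2*) and the highest (*Ina*, *Islr2*). GGACT is in capitals within 10 nt of sequence on each side, written 5′ to 3′ on the strand of the gene.
Sncg: tgcgcaaggaGGACTtggaaccccc
Nefm: catttaaaatGGACTtctgttcatg
Stmn2: caagcactgtGGACTtttactcaag
Ina: gggaataccaGGACTtgctcaatgt
Islr2: agggacggcaGGACTttaacaccct
In *Sncg* the match lies in the coding sequence, its A being at position -76 from the last base of the stop codon, and the window crosses an exon junction (chr14:34370900-34373263, minus strand). In *Ina* it is coding as well, at position -364 from that base in exon 2 (chr19:47021897-47021921, plus strand). In *Islr2*, *Nefm* and *Stmn2* it lies in the untranslated region after the stop codon, 64 nt past its last base in exon 2 (chr9:58197662-58197686, minus strand), 382 nt in exon 3 (chr14:68119643-68119667, minus strand) and 983 nt in exon 5 (chr3:8561296-8561320, plus strand), respectively. These letters mark where methylation could be placed. Methylation itself was not measured in these libraries, and members at both ends of the comparison carry them.

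Total counts ranged from 19530226 to 39499994 per library, of which 2083594 to 4175459 fell on protein-coding genes. *AY036118* and *CT010467.1*, overlapping genes of chromosome 17, took 55.5% and 55.0% of the input libraries, against 85.3% and 87.8% of the RIP libraries. Mitochondrial genes took 18.6% and 19.4% of the inputs, against 0.578% and 0.522% of the RIP. Levels are given as CPM (counts scaled to TMM-normalised library size), and fold changes are relative to the bulk of tested transcripts. The input replicates lay further apart than the RIP replicates, as the chi-square divided by its degrees of freedom was 167 for the former and 22.6 for the latter over 6858 genes (counts of 50 or more throughout). The difference between the inputs (replicate 2 minus replicate 1, log2 CPM) had a Spearman correlation of 0.327 with transcript length over 11932 genes, which are not independent of each other, so that longer transcripts tended to be lower in input replicate 1. Transcripts of RGC marker genes were detected in each library, since *Pou4f1*, *Pou4f2* and *Isl1* had between 31 and 210 counts in all 4. Markers of pigment epithelium, lens and astrocytes were low but not absent. *Rpe65*, *Tyr*, *Cryaa*, *Crygd* and *Aqp4* were at 0 counts throughout, whereas *Dct* had 0 to 15, *Mitf* 0 to 10, *Bfsp1* 0 to 19, *Gfap* 9 to 21 and *Pax2* 11 to 35 counts per library. Summed over 4 genes each, these lists stayed between 0.0 and 1.66 CPM.

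The 10 transcripts did not move as a block. *Sncg*, *Gap43*, *Nefm* and *Stmn2* fell in the RIP by edgeR's quasi-likelihood test, which is 4 of 10 with an adjusted p below 0.05 against 9.78% of all tested genes depleted. At that threshold 0 of 10 members rose, against 3.48% of all genes enriched. At an unadjusted p below 0.05, 1 member (*Ina*) was higher, as were 1570 of all 13632 tested genes. DESeq2 called the same 1, and 692 of the 23345 genes with any count. That set includes genes that did not pass the filter on low counts, so its share is not of the 13632 genes. *Ina* came closest and met the limits seen in the study's list of targets, a log2 fold change of at least 1 with an unadjusted p below 0.05, which 9.43% of all genes met. At the mirrored limits 4 of 10 members were depleted, the same 4 genes, against 17.2% of all genes. Both RIP libraries lay below both inputs for 6 members and above both for 2, where 31.3% and 29.6% of all tested genes were separated in the same way. The median log2 fold change of the members was -0.77, and that of all tested genes was -0.05. For any transcript taken alone, exact permutation of 2 against 2 libraries reaches no two-sided p lower than 0.333, and each call rests on a spread estimated jointly over genes. Leaving out either RIP library ended all 4 calls, with adjusted p of 0.0811 and 0.0591 for *Sncg* and between 0.163 and 0.312 for the other three. In those fits the number of depleted genes fell from 1333 to 112 without RIP replicate 1 and to 178 without RIP replicate 2.

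**Figure D1:**
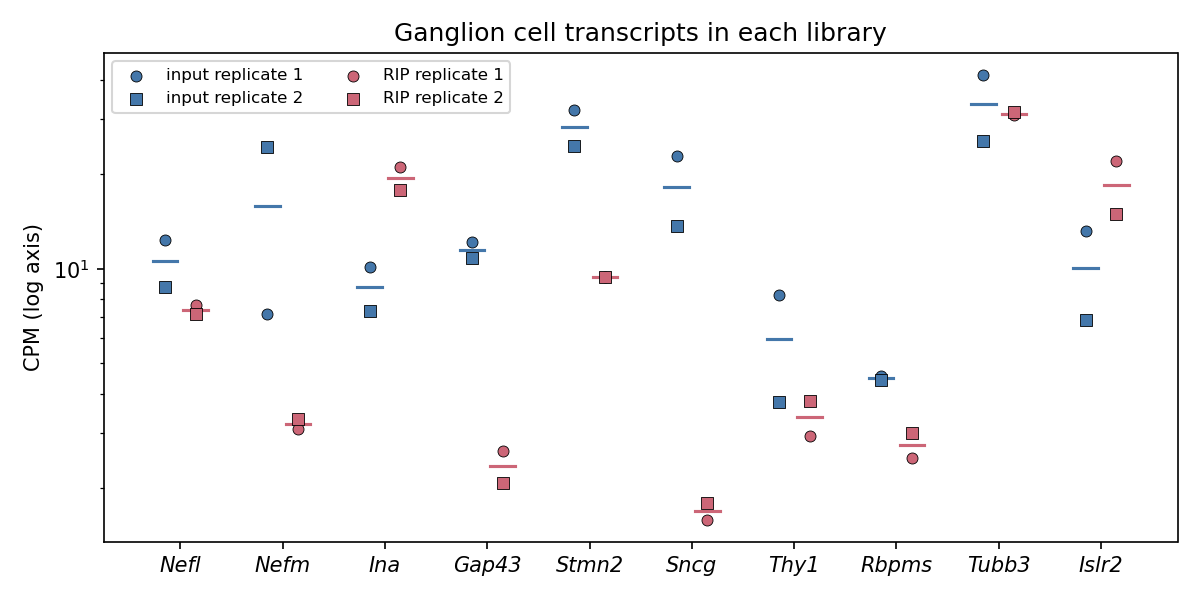
Level of each member in CPM (log axis) in the 2 input libraries (blue) and the 2 RIP libraries (red), with circles for replicate 1, squares for replicate 2 and a bar at the mean of each group. Sncg sat at 13.7 and 22.9 CPM in the inputs and below 2 CPM in the RIP, whereas Ina and Islr2 lay above both inputs.

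Of the 3 intermediate filament genes, whose transcripts are of nearly equal length, *Nefm* fell, and *Nefl* and *Ina* did not pass the test. The differences between them were not tested. *Ina* (ENSMUSG00000034336, chr19:47014698-47025327, plus strand) was counted 338 times in input replicate 1 and 251 times in input replicate 2, against 533 times in RIP replicate 1 and 427 in RIP replicate 2. Input levels averaged 8.73 ± 2.00 CPM (SD, n = 2) and RIP levels 19.4 ± 2.39. Both RIP libraries were above both inputs, by a log2 fold change of 1.16 (standard error 0.350, unadjusted p = 0.00990, adjusted p = 0.0638). The replicates gave 1.06 and 1.28. Some other choices brought the adjusted p under the threshold. It was 0.0259 with DESeq2 and 0.0387 with library size alone, 0.000265 without input replicate 1 and 0.0033 without input replicate 2, while fits without RIP replicate 1 or 2 gave 0.402 and 0.296, on the same side as the value with all libraries. Of the 3240 exonic bases of *Ina*, 456 (14.1%) overlap exons of *Nt5c2* on the opposite strand. *Nt5c2* had a log2 fold change of -0.50 and fewer counts than *Ina* in every library.

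*Nefl* (ENSMUSG00000022055, chr14:68083863-68089095, plus strand) was counted 413 and 301 times in the inputs, against 193 and 172 times in the RIP. At 10.6 ± 2.56 CPM (SD, n = 2) against 7.40 ± 0.353, the RIP libraries were lower than both inputs, but the log2 difference of -0.52 (standard error 0.354, adjusted p = 0.369) did not pass the test. Without input replicate 2 it was -0.75 and passed (adjusted p = 0.0118), and without input replicate 1 it was -0.25. *Nefm* (ENSMUSG00000022054, chr14:68082590-68124846, minus strand) was counted 240 and 837 times in the inputs, against 78 and 80 times in the RIP. The inputs differed 3.39-fold in CPM, the widest gap among the members, and in the direction opposite to the other 9, which were all higher in input replicate 1. Both RIP libraries were nevertheless below both inputs, and *Nefm* fell by 2.30 on the log2 scale (standard error 0.562, adjusted p = 0.0315). The size of this fall rested on the input used, being -1.17 without input replicate 2 (adjusted p = 0.00375) and -2.93 without input replicate 1 (adjusted p = 4.23e-07). The call was lost with TMM from protein-coding genes (adjusted p = 0.0574), with no filter on low counts (0.0892) and on both FPKM scales (0.0894 and 0.0908). *Nefl* lies within the annotated span of *Nefm*, on the opposite strand. Annotated *Nefm* exons share 1108 exonic bases with *Nefl*, which is 32.8% of the *Nefl* exons and 19.2% of those of *Nefm*. The libraries were made with a stranded kit, but the strand setting of the counting is not given in the sources used here, so that reads of the shared stretch may have been assigned to either gene or to none.

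Ratios of counts within a library do not depend on how libraries are scaled. There were 0.818 and 0.834 *Ina* counts for each *Nefl* count in the inputs, against 2.76 and 2.48 in the RIP, so the order of these neurofilament partners was inverted between input and pulldown in both replicates. For *Ina* relative to *Nefm*, the ratios were 1.41 and 0.300 in the inputs, against 6.83 and 5.34 in the RIP. The *Nefm* to *Nefl* ratio was 0.404 and 0.465 in the RIP, below the 0.581 of input replicate 1 and the 2.78 of input replicate 2.

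**Figure D2:**
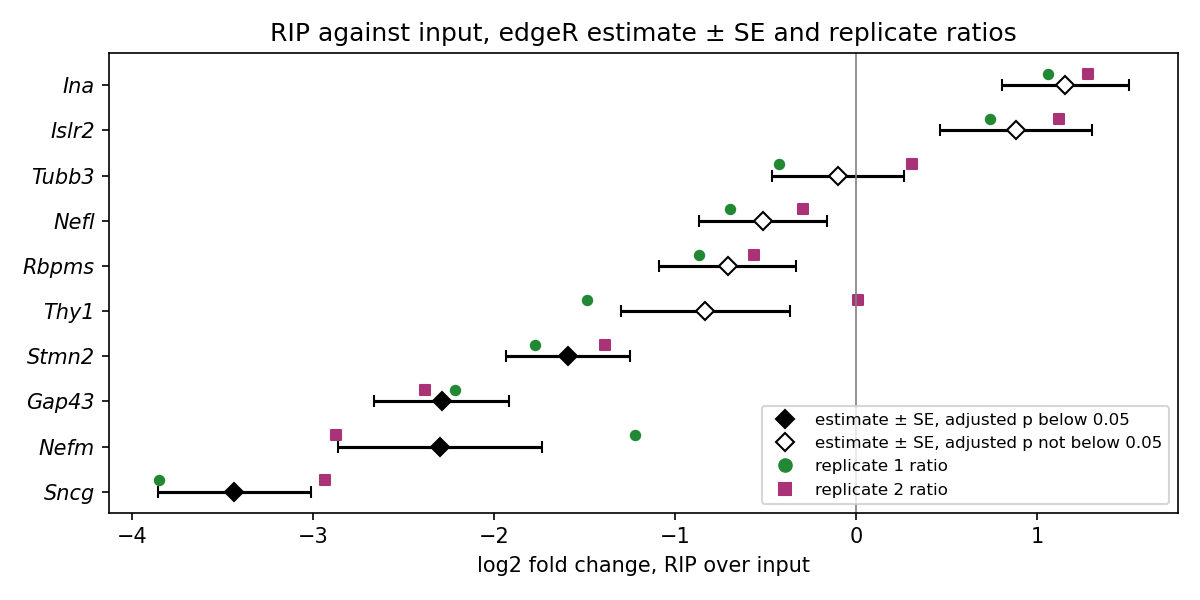
Log2 fold change of RIP over input for each member (diamonds, edgeR estimate ± SE, filled where the adjusted p was below 0.05), with the ratio of replicate 1 (green circles) and replicate 2 (purple squares) above it. The replicate ratios of Sncg, Gap43, Nefm and Stmn2 all lay below -1, and those of Tubb3 and Thy1 lay on both sides of 0.

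Both growth cone genes fell, but neither call held when the trend on transcript length and GC content was taken out (adjusted p from 0.0685 to 0.0813 for *Gap43* and from 0.0806 to 0.205 for *Stmn2*). *Gap43* (ENSMUSG00000047261, chr16:42248442-42340651, minus strand) went from 405 and 372 counts to 66 and 50. Its level went from 11.5 ± 0.924 CPM (SD, n = 2) to 2.35 ± 0.380, or -2.29 on the log2 scale (standard error 0.374, adjusted p = 0.00653), and the replicates gave -2.22 and -2.38. The inputs were within 1.12-fold of each other, and the fall was larger than the spread of either group. It was -1.35 to -1.43 with the trend taken out. *Stmn2* (ENSMUSG00000027500, chr3:8509360-8561606, plus strand) went from 1069 and 844 counts to 237 and 226. It fell from 28.3 ± 5.28 CPM (SD, n = 2) to 9.39 CPM in RIP replicate 1 and 9.40 in RIP replicate 2, by 1.59 on the log2 scale (standard error 0.344, adjusted p = 0.0204). With library size alone the change of *Stmn2* was -1.25 and missed the threshold (adjusted p = 0.0705).

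The largest change among the members was that of *Sncg* (ENSMUSG00000023064, chr14:34370274-34374789, minus strand), the shortest of them. From 763 and 469 counts in the inputs it dropped to 40 and 43. The input level of 18.3 ± 6.52 CPM (SD, n = 2) stood against 1.69 ± 0.143 in the RIP, which is 10.8-fold lower (log2 value -3.43, standard error 0.422, adjusted p = 0.00201). Both replicates showed it, with -3.85 and -2.93. Only 2.52% of all tested genes had a lower log2 fold change. Under the alternatives that kept all 4 libraries the call held in each, with adjusted p of at most 0.0450.

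The surface marker *Thy1* and the RNA-binding marker *Rbpms* did not pass the test. *Thy1* (ENSMUSG00000032011, chr9:44043384-44048579, plus strand) was counted 274 and 129 times in the inputs, against 74 and 91 times in the RIP. The inputs differed 2.19-fold and the lower of them, 3.76 CPM, was just under the higher RIP library at 3.78 CPM, so the groups overlapped. Its log2 fold change was -0.83 (standard error 0.466, adjusted p = 0.267), with -1.49 in replicate 1 and 0.01 in replicate 2. Without input replicate 2 *Thy1* was at -1.30 and passed the test (adjusted p = 0.00196), and without input replicate 1 it was at -0.16. *Rbpms* (ENSMUSG00000031586, chr8:33782643-33929863, minus strand), the marker by which RGCs are commonly counted, had 152 counts in either input and 63 and 72 in the RIP. The inputs were within 1.03-fold of each other at 4.49 ± 0.0916 CPM (SD, n = 2) and the RIP libraries were lower at 2.75 ± 0.351, but the log2 fold change of -0.71 (standard error 0.380) had an adjusted p of 0.249. Its sign turned with the trend on the coding transcript (0.44, and 0.49 with the replicate block).

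*Tubb3* (ENSMUSG00000062380, chr8:123411424-123422015, plus strand) had the most counts of the members, with 1379 and 874 in the inputs, against 777 and 757 in the RIP. Its RIP levels of 30.8 and 31.5 CPM lay between the inputs of 25.5 and 41.4 CPM. The log2 fold change was -0.10 (standard error 0.363, adjusted p = 0.881), and its sign turned with the scaling (0.25 with library size alone) and with the input used (0.29 without input replicate 1 and -0.42 without input replicate 2). Beta tubulin genes are similar in sequence, and how reads matching more than 1 of them were counted is not given in the sources used here. *Islr2* (ENSMUSG00000051243, chr9:58196297-58204319, minus strand) was the other member above the inputs. It was counted 440 and 236 times in the inputs, against 556 and 360 times in the RIP, or 13.2 and 6.88 CPM against 22.04 and 14.97 CPM. The difference of 0.88 on the log2 scale (standard error 0.417, adjusted p = 0.196) did not pass. It was 1.43 without input replicate 1 (adjusted p = 0.000815) and 0.48 without input replicate 2 (adjusted p = 0.130). *Islr2* overlaps *Islr* on the same strand over 3.06% of its exons, for which 5 and 4 input counts and 0 RIP counts were recorded. The study names *Islr2* as a YTHDF2 target. It reported m6A on the mRNA by pulldown and RT-qPCR, and a higher mRNA level in adult *Ythdf2* knockout retina. Its targets were taken from its own RIP list and from proteins raised after knockdown, not from the fit used here. In this edgeR fit *Islr2* also missed the limits seen in the study's list (log2 fold change 0.88, unadjusted p = 0.0651).

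The members were also set against *Tubb3* within each library, which is free of scaling. *Sncg* counts were 55.3% and 53.7% of those of *Tubb3* in the inputs, against 5.15% and 5.68% in the RIP. *Stmn2* went from 77.5% and 96.6% to 30.5% and 29.9%. *Gap43* went from 29.4% and 42.6% to 8.49% and 6.61%. In the other direction, *Ina* went from 24.5% and 28.7% to 68.6% and 56.4%, and *Islr2* from 31.9% and 27.0% to 71.6% and 47.6%. The RIP ratios lay below both inputs for 7 members (*Sncg*, *Stmn2*, *Gap43*, *Nefl*, *Nefm*, *Thy1* and *Rbpms*) and above both for *Ina* and *Islr2*, where 29.3% of all tested genes were separated in each direction by the same ratio. *Islr2* and *Thy1*, both genes of the neuronal surface, stood at 1.61 and 1.83 *Islr2* counts for each *Thy1* count in the inputs, against 7.51 and 3.96 in the RIP.

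Levels between genes were compared on the deposited FPKM values, which are per length. In both inputs *Sncg* was the highest member, at 21.7 and 14.6 FPKM, ahead of *Tubb3* at 17.8 and 12.4. These neighbours did not differ beyond their spread. *Gap43* followed at 6.41 and 6.45 FPKM and *Stmn2* at 4.59 and 3.99, with no overlap between them. The FPKM values of *Nefl* (2.94 and 2.35), *Nefm* (0.996 and 3.83), *Ina* (2.51 and 2.05), *Thy1* (2.19 and 1.11) and *Islr2* (1.76 and 1.04) overlapped in part, and *Rbpms* was lowest at 0.894 and 0.986. In the RIP libraries *Tubb3* led with 19.6 and 14.97 FPKM, *Ina* came next with 7.74 and 4.86 and then *Islr2* with 4.37 and 2.22. *Sncg* came after *Nefl* with 2.17 and 1.84 and *Nefm* last with 0.631 and 0.502. The FPKM divide by the union of all annotated exons, to within 5% for 90.8% of 4115 genes with at least 200 counts in input replicate 1. That union is 5602 nt for *Stmn2* and 6556 nt for *Rbpms*, against transcripts with the longest coding sequence of 2073 and 1039 nt, and the level of such genes per base of the transcript present may be higher than these values.

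**Figure D3:**
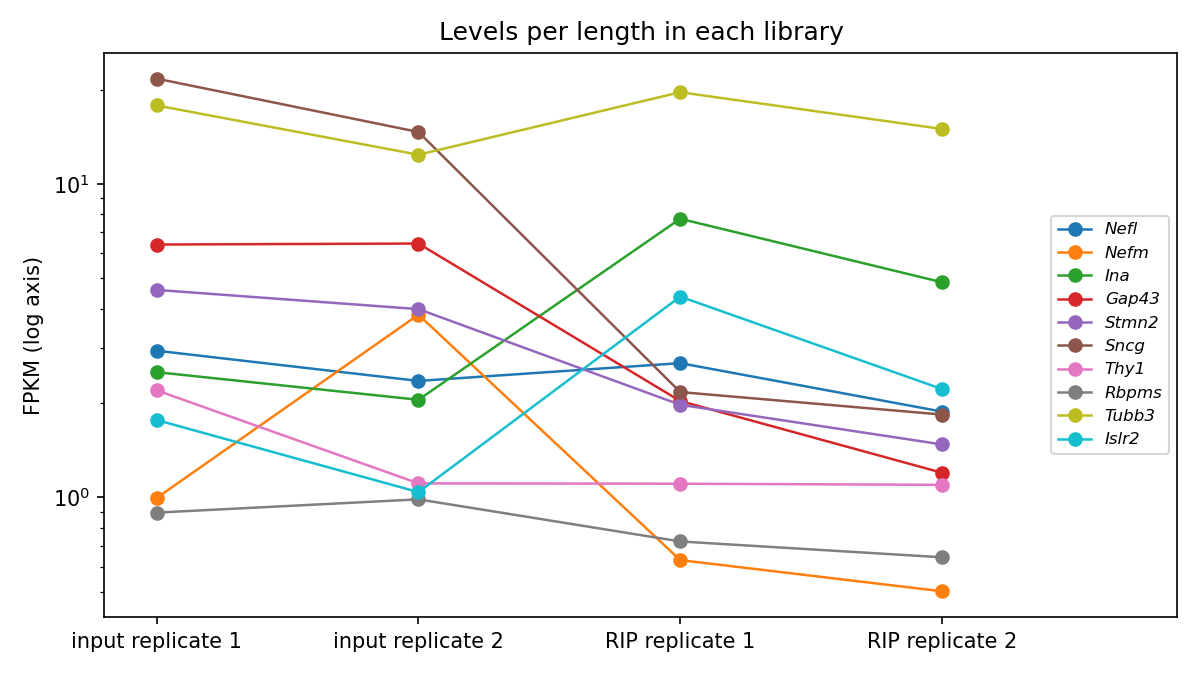
Level per length of each member in FPKM (log axis) in the 4 libraries, with lines joining the values of a gene. Sncg led both inputs and came after Nefl in both RIP libraries, while Ina and Islr2 moved up behind Tubb3.

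Transcript length moved with the fold change across the whole table. Over 11932 tested protein-coding genes, the log2 fold change had a Spearman correlation of 0.481 with the length of the coding transcript, as a description across genes. The median log2 fold change was -1.92 for transcripts of at most 1000 nt, -0.61 up to 2000 nt, -0.10 up to 3000 nt, 0.27 up to 5000 nt and 0.53 for longer ones. Depleted genes made up 53.5%, 15.6%, 5.39%, 1.91% and 0.793% of these classes in the same order, and enriched genes 0.282%, 1.35%, 2.16%, 4.0% and 8.45%. *Sncg*, at 852 nt, belongs to the class in which most genes were depleted, and 11.7% of that class lay lower. *Gap43*, at 1420 nt, was lower than all but 7.76% of its class and *Stmn2*, at 2073 nt, lower than all but 7.67%. In the class of *Gap43*, *Thy1* (1735 nt) stood above 41.1%, *Rbpms* (1039 nt) above 45.8% and *Tubb3* (1868 nt) above 71.2%. *Nefl*, *Nefm*, *Ina* and *Islr2* share the class from 3000 to 5000 nt, in which *Nefm* was lower than all but 1.19%, *Nefl* stood above 17.6%, *Islr2* above 80.1% and *Ina* above 88.5%. The 3 filament transcripts, of 3240 (*Ina*), 3334 (*Nefm*) and 3380 nt (*Nefl*), share that class, and *Nefm* alone of them passed the test. Differences between the 3 were not tested, and the inputs of *Nefm* differed 3.39-fold in CPM.

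**Figure D4:**
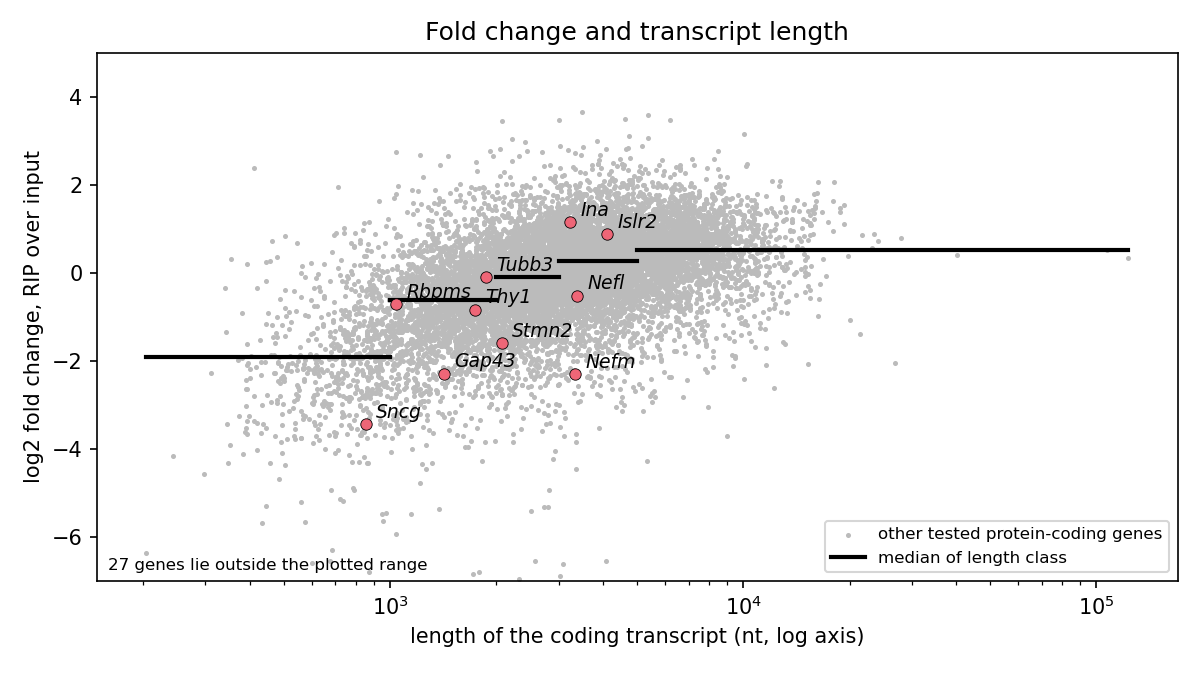
Log2 fold change of RIP over input against the length of the coding transcript (nt, log axis) for tested protein-coding genes (grey), with the members in red and the median of each length class as a black line. The class medians rise from -1.92 to 0.53, and Nefm lies far below and Ina above the median of 0.27 of their shared class.

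When a smooth trend of the fold change on transcript length and GC content was taken out, *Sncg* was at -1.97 and *Nefm* at -2.73, both still past the threshold (adjusted p = 0.0363 and 0.0392). With the length of the coding transcript in that trend, *Nefm* was at -2.53 and missed it (adjusted p = 0.0515). In the trend on the longest transcript of each gene, as for the first values given, *Gap43* was at -1.39 (adjusted p = 0.0751). *Stmn2* was at -1.25 in that fit (adjusted p = 0.0806), so these calls were lost. *Ina* kept most of its value, at 0.94 (adjusted p = 0.169), and *Islr2* was at 0.23. With the replicate block in the same fit, the values were -1.88 for *Sncg* (adjusted p = 0.00639) and -2.46 for *Nefm* (adjusted p = 0.000157), and *Gap43* and *Stmn2* again missed the threshold. The block alone changed none of the members' calls. It raised the number of enriched genes in the whole table from 474 to 721.

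Relatives of the members were measured alongside them. *Nefh*, the heavy neurofilament chain, and *Prph* (peripherin) were too low to test, with 0 to 9 counts per library, as was *Islr*. Of the 8 relatives that could be tested, 1 fell (9.78% of all genes were depleted), namely *Basp1*, a growth cone membrane protein often grouped with GAP43, from 2241 and 2047 counts to 528 and 471 (log2 fold change -1.65, adjusted p = 0.0160). This call was lost in all 4 trend fits (adjusted p from 0.0725 to 0.121) and with library size alone (0.0547). Both RIP libraries lay below both inputs in 6 of the 8, as they did in 31.3% of all genes. The RGC-expressed paralog *Rbpms2* was at -1.41 (adjusted p = 0.0510) and *Sncb* (beta-synuclein) at -1.83 (adjusted p = 0.0764). *Sncb* passed with the replicate block (adjusted p = 0.00544), as did *Rbpms2* (0.0401) and the stathmin gene *Stmn4*, at -1.42 without and -1.47 with the block (adjusted p = 0.0669 and 0.0302). *Stmn3* was at -0.90, *Stmn1* at -0.19, *Tubb2b* at -0.60 and *Tubb2a* at 0.08, and none of these passed.

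Further genes of the same roles were read from lists with the members left out. Among 24 genes of growth cone and neurite outgrowth, 2 rose and 4 fell (8.33% and 16.7%, against 3.48% and 9.78% of all genes), and 18 did not pass. Those that fell were *Tmsb10* (-5.69, adjusted p = 0.00102) and *Tmsb4x* (-4.31, adjusted p = 0.000926), which sequester actin monomers, *Basp1*, and the actin-severing *Cfl1* (-1.84, adjusted p = 0.0171). *Cfl1* and those that rose were named after their values were seen. They were *Cdk5r1*, the p35 activator of CDK5 (1.53, adjusted p = 0.0246), and *Gprin1*, a G protein-regulated inducer of neurite outgrowth (1.56, adjusted p = 0.0394). In the 4 trend fits on length and GC content these calls were lost, with adjusted p from 0.112 to 0.189 for *Cdk5r1*, from 0.219 to 0.257 for *Gprin1* and from 0.0583 to 0.528 for *Cfl1*. Of 10 tested intermediate filament and linker genes, 0 passed in either direction by edgeR's adjusted p or by DESeq2. At an unadjusted p below 0.05, 1 was higher, as were 1570 of all 13632 tested genes, and the median of the list was 0.40. Of 14 tested genes of the neuronal surface and of neurotrophin receptors, 1 fell, the small surface glycoprotein gene *Cd24a* (-1.36, adjusted p = 0.0310), and their median was 0.51. *Cd24a* turned to 0.57 and 0.64 with the trend on the coding transcript, and its adjusted p over the alternatives that kept all libraries reached 0.680. Of 10 neuronal RNA-binding genes, 1 fell, *Elavl3* (-1.58, adjusted p = 0.0204, and 0.0722 with library size alone), with a median of 0.19. Of 9 synuclein and tubulin genes, 1 fell, *Tuba1a* (-2.18, adjusted p = 0.0203, and 0.0510 to 0.0830 in the trend fits), with a median of -0.78.

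Other markers of RGC identity were read beside the members. Among 12 RGC marker genes outside the members, such as *Pou4f1*, *Pou4f2*, *Isl1*, *Ebf3* and *Atoh7*, 0 passed in either direction by edgeR's adjusted p, 0 at an unadjusted p below 0.05 and 0 by DESeq2, and their median log2 fold change was -0.08. The 12 values ran from -1.79 for *Slc17a6* to 0.75 for *Atoh7*, and 3 were above 0. *Slc17a6* had 16 and 61 counts in the inputs, against 11 and 5 in the RIP (adjusted p = 0.193). *Nrn1* was at -1.07 (adjusted p = 0.227). Both RIP libraries lay below both inputs for 3 of the 12 markers (*Slc17a6*, *Nrn1* and *Pou4f2*). They lay above both for 3 others (*Atoh7*, *Sox4* and *Pou4f3*). Over all tested genes these shares were 31.3% and 29.6%. The summed level of the 12 markers was 108 and 186 CPM in the inputs, against 162 and 155 CPM in the RIP, within the range of the inputs. *Sox4* and *Sox11*, which are broadly neuronal, made up 82.8 and 154 CPM of this in the inputs, against 135 and 132 CPM in the RIP. The other 10 markers summed to 24.7 and 31.3 CPM in the inputs, against 27.5 and 23.4 CPM in the RIP, which overlapped. The summed level of the 10 members was 164 and 130 CPM in the inputs, against 104 and 94.7 in the RIP. The inputs thus ranked in opposite order for the RGC marker list and for the members, and in bulk retina fewer RGCs and less RNA per RGC cannot be told apart. Progenitor markers had 3 depleted genes among 10 (*Sox2*, *Hes1* and *Mki67*, with 2 by DESeq2), against 9.78% of all genes. Amacrine and horizontal cell markers had 1 among 10 (*Onecut1*, with 2 by DESeq2). The inputs of *Mki67* (453 and 2388 counts) differed 5.12-fold in CPM and those of *Onecut1* (117 and 346 counts) 2.87-fold. For *Sox2* and *Hes1* the inputs differed 1.02- and 1.60-fold. How these marker calls depend on either input was not tested. Photoreceptor precursor markers had 0 called among 7 tested in either direction (2 higher at an unadjusted p below 0.05, and 1 by DESeq2). Over all 13632 tested genes 1570 were higher at that unadjusted p. DESeq2 called 692 enriched and 1456 depleted of the 23345 genes with any count, a wider set than the tested genes. Among vessel markers 1 of 2 tested rose, against 3.48% of all genes. This was the pericyte gene *Pdgfrb*, from 46 and 35 counts to 94 and 90 (1.63, adjusted p = 0.0376). The 3 tested microglia markers had a median of 1.30, with 0 called by edgeR's adjusted p or by DESeq2 and 1 higher at an unadjusted p below 0.05, and their list summed to 1.54 to 4.66 CPM. The part of cell composition in the members' values was not tested.

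**Figure D5:**
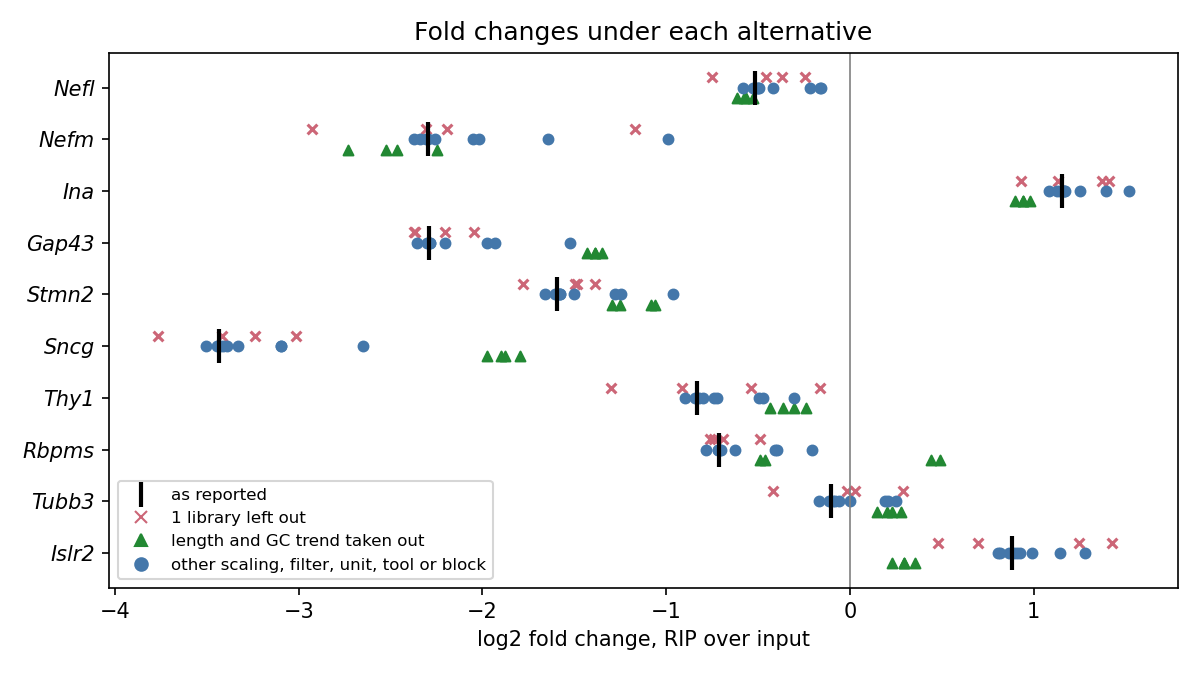
Log2 fold change of RIP over input of each member as reported (black bar), with 1 library left out (red crosses), with the trend on length and GC content taken out (green triangles) and under the other scalings, filters, units, tools and the replicate block (blue circles). Sncg, Gap43, Nefm and Stmn2 stayed below 0 and Ina and Islr2 above 0 in each fit shown, whereas Tubb3 and Rbpms appear on both sides of 0.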

How the data were processed

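The authors deposited whole-number counts per gene and FPKM values for 4 libraries. Per the labels, STAR 2.5, HTSeq and GRCm38 were used. The authors scaled FPKM by gene length and library size, and settings, strand option and annotation release are not given in the sources used here. Coordinates and transcripts came from GENCODE M21, which held 52403 of 52550 gene identifiers.

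Tests on counts used edgeR 4.0.16 under R 4.3.3 (filterByExpr with minimum count 10 and minimum total 15, TMM, glmQLFit, glmQLFTest, Benjamini-Hochberg adjustment over 13632 genes). Each standard error is the size of the log2 fold change over the root of its F. Alternatives used DESeq2 1.42.0, limma 3.58.1 on log2(FPKM + 0.1) and log2(FPKM + 1) for a mean FPKM of at least 0.1, which understates changes of low genes, and trends on length and GC content entered as offsets (mgcv 1.9.3, basis size 8). Of these, the trends on the length of the transcript with the longest coding sequence, tested over 11934 genes, were added after the data were seen.

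The series' design text ties each replicate number to an input and a RIP library. The replicate differences of input and RIP correlated at -0.0348 (Pearson) over 13632 genes. Replicate number was not a term of the model, and the fit that blocks on it was an alternative. The labels do not say whether replicates came from separate litters, so p-values measure the spread between these libraries. Replicates differed beyond sampling noise.

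Named genes are the members, 11 relatives fixed by name (1 other gene of that list is not reported here) and, from each list, at most the 3 with the lowest p among those with an adjusted p below 0.05. Members and lists were chosen with earlier results of these data known. In counts simulated for this comparison over 13134 tested genes, 44.7% of 94 genes changed by 2 on the log2 scale and 1.04% of 96 changed by 1 were recovered at an adjusted p below 0.05. Only 200 genes were changed in that simulation, whereas the comparison itself called 474 enriched and 1333 depleted. The adjustment is stricter where fewer genes change, so these shares cannot be read as the recovery of the reported test.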

Additional observations from a re-analysis of the deposited data

How the results depend on the processing

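Over the 10 members, 101 of 130 values from the fits with all 4 libraries kept their direction and side of the threshold, 15 lost and 5 gained a call and 9 changed sign. Those 9 belonged to *Tubb3* and *Rbpms*. *Tubb3* was at 0.21 and 0.19 on log2(FPKM + 0.1) and log2(FPKM + 1), 0.25 with library size alone, 0.20 and 0.28 with the length and GC trend without and with the replicate block, and 0.15 and 0.23 with the trend on the coding transcript. *Rbpms* was at 0.44 and 0.49 in the latter pair. With 1 library left out, *Tubb3* ranged from -0.42 to 0.29. Causes were not tested unless stated.

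Members depleted numbered 4. There were 2 with the length and GC trend, 2 with that trend and the replicate block, 1 and 2 with the trend on the coding transcript, 2 on log2(FPKM + 0.1), and from 0 to 6 with 1 library left out. Members enriched numbered 0. There was 1, *Ina*, with DESeq2, library size alone, TMM from protein-coding genes, both FPKM scales and the limits of the study's list, and from 0 to 2 with 1 library left out. *Nefm* lost its call with the trend on the coding transcript without the block (adjusted p = 0.0515), TMM from protein-coding genes (adjusted p = 0.0574), no filter on low counts (0.0892) and both FPKM scales (0.0894 and 0.0908). *Stmn2* lost it on log2(FPKM + 0.1) (0.0568). The members' median of -0.77 was -0.25 on log2(FPKM + 1), which shrinks low values by construction, and ranged from -0.96 to -0.47 with 1 library left out. Library size alone moved the median of all genes from -0.05 to 0.27.

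Over all genes, 474 enriched became 845 with library size alone, 292 with no filter on low counts, 721 with the replicate block, 153 with the length and GC trend, 136 with the trend on the coding transcript, and from 8 to 2537 with 1 library left out. The 1333 depleted became 349 and 682 with the length and GC trend without and with the block, 173 and 376 with that on the coding transcript, and from 112 to 2766 with 1 library left out. A group left with 1 library is assumed to vary like the other. The replicate block changed the calls of *Sncb*, *Stmn4* and *Rbpms2* and no other call of the members, the relatives or the outgrowth, filament, surface, RNA-binding and tubulin genes named. The named cell type markers were left out of this comparison.

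Among relatives, *Stmn1* was at 0.088 and 0.087 on the FPKM scales, 0.17 with library size alone, 1.10 and 1.16 with the length and GC trend without and with the block, 1.12 and 1.19 with that on the coding transcript, and from -0.38 to 0.026 with 1 library left out. In the same order of the 4 trend fits *Stmn3* was at 0.074, 0.15, 0.12 and 0.20. *Cd24a* was at 0.57 and 0.64 with the trend on the coding transcript. *Tubb2a* ranged from -0.23 to 0.46 with 1 library left out.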
